A study of Mus musculus with 12 samples.

Results

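The response of wild-type alveolar macrophages to interleukin-4 (IL-4) was taken as the comparison of 3 arrays of IL-4-treated cells (M2) with 3 arrays of unpolarized cells (M0), out of 12 arrays in the series. Alveolar macrophages, which live in the airspaces of the lung and take up particles, surfactant and microbes, were lavaged from C57Bl/6J mice of 8 to 12 weeks that were kept free of specific pathogens. The lavage used 8 washes of 1 ml, M2 cells received 20 ng/ml IL-4 for up to 24 h, and M0 cells served as their controls. The other 6 arrays came from Lmp7 knockout mice, 3 M0 and 3 M2, where Lmp7 is the immunoproteasome subunit encoded by Psmb8. The time in culture of the M0 cells, the number of animals behind an array and whether arrays came from separate animals are not given in the sources used here, so p-values here reflect array-to-array spread that may be technical in part or whole. After the filter on detection, 9200 of 25697 probes were kept, and the named ones among them covered 6563 genes. All 6563 genes count as members of the response, and each was read from its brightest kept probe.

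IL-4 binds a receptor that activates Janus kinases and the transcription factor STAT6, and in macrophages this leads to alternative, or M2, activation. M2 macrophages are known for arginase, chitinase-like and resistin-like proteins, lectin receptors and chemokines that attract T helper 2 cells, and for a metabolism that leans on mitochondrial respiration. Cytokine-inducible inhibitors of the SOCS family act as feedback on the receptor. In the lung this form of activation is studied in allergy, parasite infection and fibrosis.

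Most macrophage markers were detected in both groups. Of 12 macrophage markers with a probe, 10 were detected on all 6 wild-type arrays, among them Siglecf, Marco, Itgax and Fabp4 of alveolar macrophages. Fcgr1 was detected on 1 M0 array and Car4 on none. Markers of other cells were mostly undetected on every wild-type array: 9 of 12 for neutrophils, 8 of 11 for T cells, 6 of 7 for B cells, 5 of 8 for NK cells, 7 of 9 for dendritic cells, 5 of 7 for endothelium, 8 of 9 for fibroblasts, 4 of 5 for red blood cells and 10 of 11 for eosinophils, basophils and mast cells. The shares were lower for alveolar epithelium (6 of 11), airway epithelium (4 of 8) and monocytes (3 of 6). The share of probes detected was 31.2% ± 3.51 (SD, n = 3) in M0 and 30.6% ± 1.24 in M2 (two-sided exact permutation test, p = 0.8, where 0.1 is the smallest p that 3 against 3 arrays allow). Correlations between arrays over the tested genes were 0.952 to 0.972 within M0, 0.978 to 0.980 within M2 and 0.931 to 0.947 between the groups. In bulk RNA, fewer cells of a type and less RNA per cell cannot be told apart.

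IL-4 raised 554 genes, or 8.44% of those tested, and lowered 500, or 7.62%. Called means an adjusted p under 0.05 by limma with Benjamini-Hochberg adjustment over the 6563 genes, and this holds for every adjusted p below. By model difference, 108 of the higher and 92 of the lower genes changed 2-fold or more. Changes of 4-fold or more were seen for 19 and 5. These counts include genes undetected on all arrays of a group, whose differences rest on readings below detection. The lower bounds given below for such genes can be smaller. Irf4 is among the 19 with a difference of 2.07 and a bound of 3.21-fold. Cxcr1 is among the 5 with a difference of -2.08 and a bound of 2.42-fold. The median difference over all genes was 0.00302 on the log2 scale and the median absolute difference was 0.224. Under median scaling of the arrays in place of quantile normalization the calls dropped to 469, of which 285 were higher. Of the genes named here by rule, 195 were called, 119 of them kept the call in each of up to 18 alternatives in which they were measured, and 34 lost it under median scaling alone. A gene said to rise or fall below belongs to the 119 unless the sentence says otherwise. Every count of list members called below is to be read against the 8.44% higher and 7.62% lower of all genes.

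**Figure D1:**
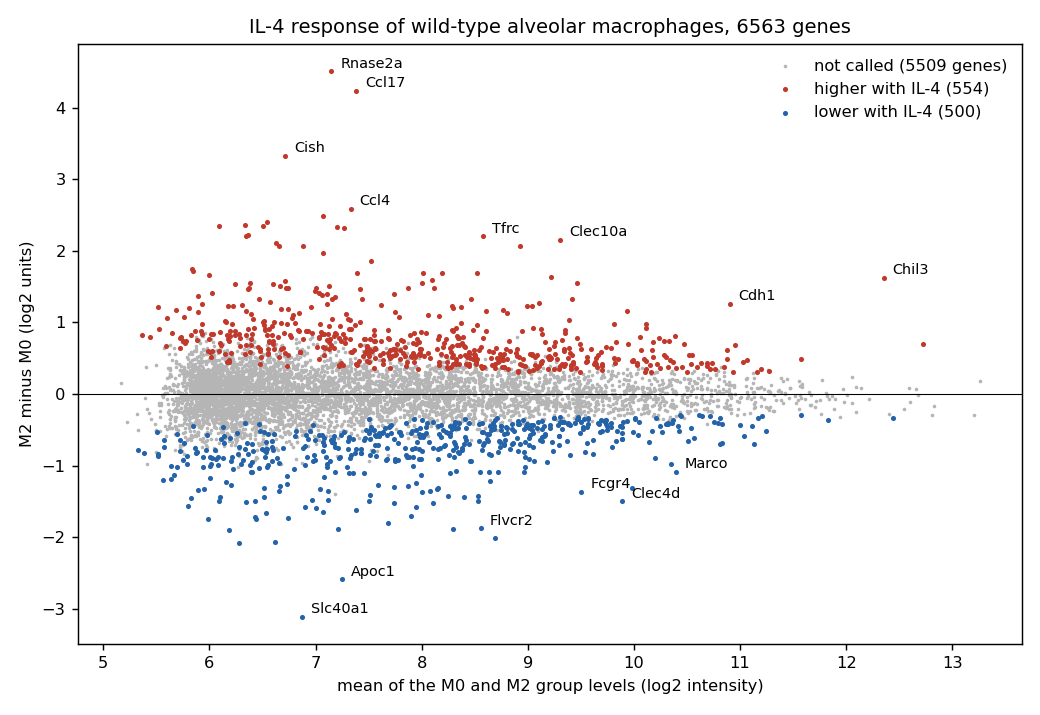
Mean level of each of 6563 genes over the M0 and M2 groups (horizontal, log2 intensity) against the M2 minus M0 difference (vertical, log2 units). Red points are the 554 genes called higher, blue points the 500 called lower, and Rnase2a and Slc40a1 lie at the 2 ends.

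With genes split by mean level into 4 equal sets, from dim to bright, 7.31%, 11.5%, 20.2% and 25.2% of genes were called. For 58 genes the probe was detected on no M0 array and on all 3 M2 arrays, and 42 of these were called higher. The opposite pattern held for 51 genes, of which 35 were called lower. Where a group had no array with detection, the fold is given as a lower bound. For this, each array without detection was given its own reading or the dimmest detected probe of that array, whichever was larger, and their average was set against the average of the detected group. The plot of levels by array gives the 20 largest increases and 20 largest decreases by model difference, those with a bound included, among genes whose M0 and M2 arrays did not overlap, a condition met by 34.1% of all genes tested.

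**Figure D2:**
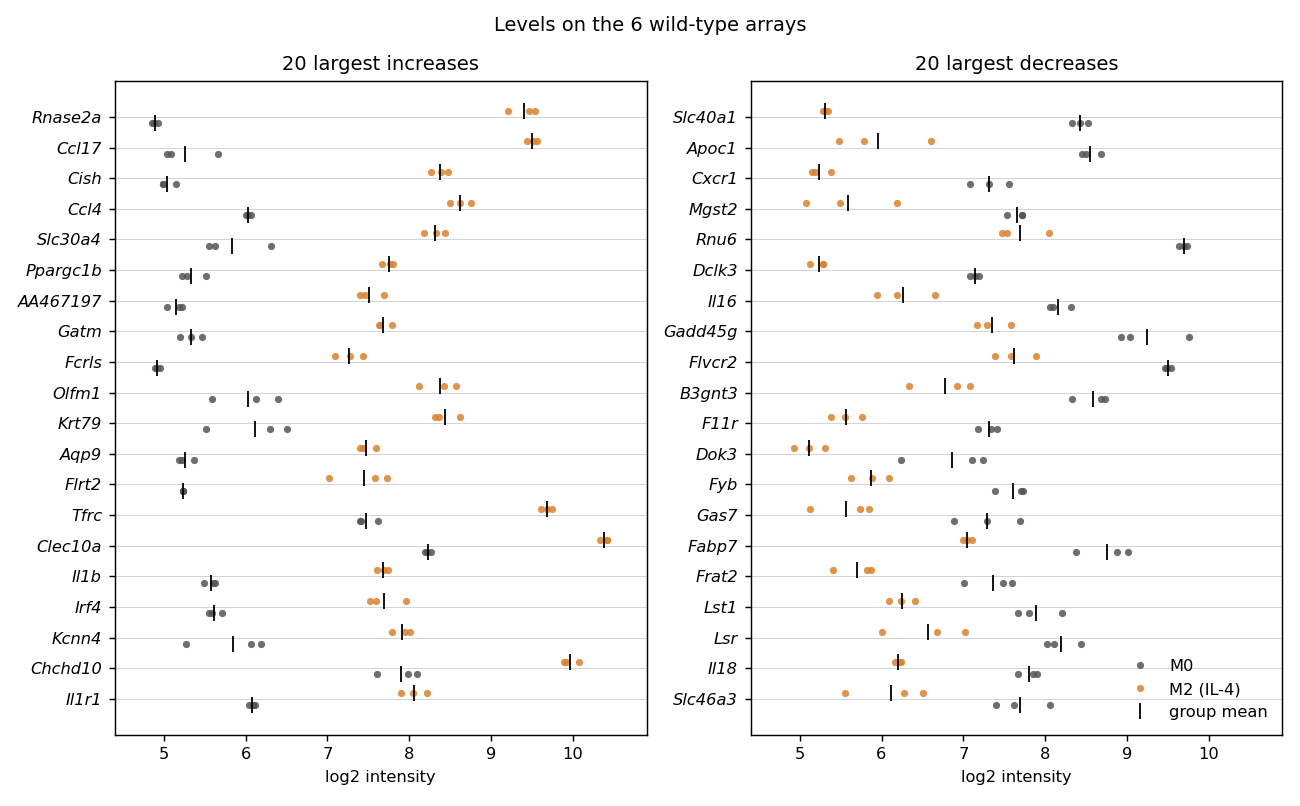
Levels (log2 intensity) of the 20 genes with the largest increases (left) and the 20 with the largest decreases (right) on the 3 M0 arrays (grey) and the 3 M2 arrays (orange), with ticks at the group means. The groups do not overlap for any of the 40 genes, which the choice of genes requires.

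Cish, a SOCS-family inhibitor of cytokine signalling that is a target of STAT proteins, read 4.99, 4.99 and 5.15 on the M0 arrays a, b and c and 8.39, 8.47 and 8.26 on the M2 arrays (log2 intensity, the scale and order used for all levels below). It was detected on all M2 arrays and on no M0 array. The difference was 3.33 ± 0.107 (SE, as for every ± after a difference; adjusted p = 1.22e-08), which is at least 5.16-fold. Socs2, a family member that restrains growth hormone and cytokine receptors, rose from 5.39, 6.15 and 6.46 to 7.48, 7.50 and 7.46 (1.48 ± 0.214, adjusted p = 0.000979). Of the 6 members measured, 3 were called higher and 0 lower. The third was Socs6 (0.68 ± 0.190, adjusted p = 0.0312), which lost the call in 8 alternatives, among them the omission of M0 array a or b or of M2 array a or c, with differences of 0.52 to 0.75 there. Socs1, the member best known to block IL-4 signalling, differed by 0.20 ± 0.237 and Socs5 by 0.20 ± 0.215, neither called.

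Of 18 receptor chains, kinases, STAT proteins, docking proteins and phosphatases measured, 2 were called higher and 2 lower, with a median difference of -0.16. That is 11.1% each, against 8.44% and 7.62% of all genes. Without M0 array a or c or M2 array b or c the higher count was 0, and under median scaling the lower count was 0. Stat6 itself read 7.92, 7.47 and 7.69 in M0 and 7.51, 7.39 and 7.50 in M2, so that the groups overlapped (-0.23 ± 0.139, adjusted p = 0.32). Ptpn6, the phosphatase SHP-1, was lower by -0.71 ± 0.123 (adjusted p = 0.00299), but was not called under median scaling. Jak2 at 0.78 ± 0.197 (adjusted p = 0.0209) lost the call without M0 array a or c or M2 array b or c, with differences of 0.61 to 0.77 there.

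Transcription regulators linked to M2 activation were called in both directions. Of 27 measured, 7 were called higher (25.9%, against 8.44% of all genes) and 4 lower (14.8%, against 7.62%), with a median of 0.30. Without M0 array c the lower count was 2, and under median scaling it was 1. Irf4, a factor required for the M2 programme in mice, went from 5.56, 5.59 and 5.71 to 7.52, 7.59 and 7.96 and was detected on M2 arrays only (2.07 ± 0.128, adjusted p = 2.45e-06, at least 3.21-fold). Ppargc1b, the coactivator PGC-1beta of nuclear receptors and mitochondrial genes, went from 5.28, 5.22 and 5.51 to 7.67, 7.81 and 7.77, also detected on M2 arrays only (2.41 ± 0.129, adjusted p = 6.72e-07, at least 3.34-fold). In both genes all 3 M2 arrays lay above every M0 array. Myc, a regulator of growth and biosynthesis, rose by 1.55 ± 0.206 (adjusted p = 0.000561, at least 2.21-fold). The lipid-sensing receptor gene Pparg at 0.31 ± 0.109 (adjusted p = 0.0819) and Klf4 at 0.45 ± 0.162 (adjusted p = 0.0869) were not called. Of 18 alternatives, Pparg was called higher in 2 and Klf4 in 4. Bcl6, a repressor opposed to STAT6 at shared sites, was lower by -0.77 ± 0.128 (adjusted p = 0.00217), but not under median scaling.

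Rnase2a, a secreted ribonuclease of the eosinophil-associated family, read 4.86, 4.93 and 4.88 in M0 and 9.53, 9.21 and 9.47 in M2 (4.51 ± 0.103, adjusted p = 5.51e-10). Its probe was undetected on every M0 array, and the change was at least 10.5-fold. Of 11 eosinophil, basophil and mast cell markers 10 were undetected on all 6 wild-type arrays, Prg2 and Epx among them, and Fcer1a was detected on the 3 M2 arrays only (0.35 ± 0.232, not called). Their summed level was 379 to 442 intensity units in M0 and 403 to 434 in M2. This sum is mostly readings below detection, so it cannot show whether such cells differed, and their part was not tested. Ccl17, a chemokine that attracts T helper 2 cells through Ccr4, went from 5.08, 5.04 and 5.67 to 9.44, 9.56 and 9.52 (4.24 ± 0.191, adjusted p = 2.09e-07, at least 11.3-fold).

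Arg1, the arginase that turns arginine into ornithine, was detected on no M0 array and read 6.77, 6.46 and 6.87 in M2 (1.72 ± 0.132, adjusted p = 1.59e-05, at least 1.62-fold). Retnla, the resistin-like protein Fizz1, was likewise undetected in M0 and read 6.64, 6.42 and 7.07 in M2 (1.75 ± 0.150, adjusted p = 3.26e-05, at least 1.63-fold). Chil3, the chitinase-like protein Ym1, was high before IL-4, at 11.58, 11.48 and 11.55, and reached 13.09, 13.21 and 13.21 (1.63 ± 0.0956, adjusted p = 1.55e-06). Its probe reached the second highest rank of an array, where quantile normalization gives each array the same value, and under median scaling the difference was 1.51. Of 30 M2 marker genes measured out of a list of 40, 16 were called higher (53.3%, against 8.44% of all genes) and 2 lower, with a median of 0.67. The lower count was 0 to 1 when an array was left out. The mannose receptor gene Mrc1 (10.41, 10.31 and 10.37 against 10.51, 10.55 and 10.69) and Cd36 at 0.22 ± 0.130, Clec7a at 0.10 ± 0.0943 and Ccl24 at -0.13 ± 0.291 were not called, while Ccl22 was not among the kept probes. Mrc1 was called higher in 1 of 18 alternatives.

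STAT6 is known to favour the palindrome TTCNNNNGAA, so promoter windows of 250 bases before to 50 after the annotated start (RefSeq, GRCm38.p6) were searched for these letters, which read the same on both strands. Of the M2 marker genes 19 had a promoter in the table and 6 held the letters in any promoter, against 6.62% of tested genes with a promoter. Counted by promoter this was 8 of 25, against 5.42% of the 6935 promoters of tested genes and 6.95% of all 32851 promoters. Of the 6 genes, Ccl17 and Retnla were called higher, and Cd36, Clec7a, Il1rn and Itgax were not called. Of the 13 without the letters 8 were called higher, 2 lower and 3 not. Among matched genes the letters were found in 9 of 83 raised 2-fold or more, in 9 of 69 lowered 2-fold or more and in 6.62% of all tested. Here 2-fold is by model difference. Over these windows 4 letter patterns were searched in all, of which 2 are described. A match is a description of the letters and no site. The rule for named genes takes at most 6 raised genes with the letters, in order of adjusted p. Besides Ccl17 and Retnla these were Cks1b, Txndc5, Psmb10 and Rpa2, with the match 147, 93, 67 and 40 bases before the start. Further raised named genes that held the letters came later in that order and are not listed. The windows of the 2 induced marker genes are shown 5′ to 3′ in the direction of the gene, with the match in capitals, 154 bases before the start of Ccl17 at chr8:94810203-94810502 (plus strand) and 145 bases before that of Retnla at chr16:48842359-48842658 (plus strand).
Ccl17: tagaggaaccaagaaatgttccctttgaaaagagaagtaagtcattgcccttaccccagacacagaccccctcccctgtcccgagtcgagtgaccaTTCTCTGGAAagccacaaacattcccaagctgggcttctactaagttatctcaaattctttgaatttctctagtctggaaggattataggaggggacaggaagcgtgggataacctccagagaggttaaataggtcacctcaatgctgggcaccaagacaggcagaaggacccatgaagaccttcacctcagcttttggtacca
Retnla: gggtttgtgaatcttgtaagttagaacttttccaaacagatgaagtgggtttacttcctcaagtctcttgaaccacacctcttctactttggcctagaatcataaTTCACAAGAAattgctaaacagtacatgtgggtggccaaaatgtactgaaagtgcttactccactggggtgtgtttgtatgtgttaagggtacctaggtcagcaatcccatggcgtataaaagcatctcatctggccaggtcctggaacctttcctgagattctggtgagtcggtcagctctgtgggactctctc

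Among other secreted factors, the inflammatory chemokine Ccl4 read 6.03, 6.01 and 6.06 in M0 and 8.62, 8.76 and 8.49 in M2 (2.59 ± 0.257, adjusted p = 8.0e-05). Ccl3, a further inflammatory chemokine, rose by 1.51 ± 0.208 (adjusted p = 0.000691). Of 10 chemokine genes measured, 4 were called higher (40%, against 8.44% of all genes) and 1 lower (10%, against 7.62%). The last was Cxcl16, a chemokine and scavenger receptor for oxidized lipid (-0.91 ± 0.170, adjusted p = 0.00414). Igf1, a growth factor that macrophages supply to tissue under repair, went from 9.69, 9.58 and 9.69 to 10.51, 10.61 and 10.61 (0.93 ± 0.0926, adjusted p = 8.08e-05). Tgfbi, a matrix protein induced by TGF-beta, fell by 0.94 on the log2 scale (SE 0.111, adjusted p = 0.000254). The collagenase Mmp13 rose by 1.64 ± 0.205 (adjusted p = 0.000378) and Olfm1, a secreted olfactomedin-domain protein, by 2.34 ± 0.227 (adjusted p = 7.02e-05). The elastase Mmp12 at 0.70 ± 0.0978 (adjusted p = 0.000748) lost its call under median scaling.

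The interleukin-1 axis changed in 2 directions. Il1b, the secreted cytokine, was undetected on every M0 array at 5.61, 5.49 and 5.62 and read 7.69, 7.60 and 7.74 in M2 (2.11 ± 0.135, adjusted p = 3.27e-06, at least 3.18-fold). Il1r1, its signalling receptor, rose from 6.04, 6.09 and 6.11 to 7.90, 8.05 and 8.22 (1.97 ± 0.116, adjusted p = 1.55e-06). Il18, another cytokine of the family, fell from 7.67, 7.90 and 7.86 to 6.17, 6.23 and 6.22 (-1.60 ± 0.126, adjusted p = 1.9e-05). In none of the 3 genes did M0 and M2 arrays overlap. The receptor antagonist gene Il1rn differed by 0.48 ± 0.256 and was not called. Nos2, the inducible nitric oxide synthase of classical activation, was near background in both groups (-0.18 ± 0.237, adjusted p = 0.69). Of 9 classical activation genes measured, 2 were called higher and 2 lower (22.2% each, against 8.44% and 7.62% of all genes). The lower count was 1 without M0 array c or any M2 array.

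Immediate early genes answer many stimuli within hours. Of 18 measured, 7 were called higher (38.9%, against 8.44% of all genes) and 2 lower (11.1%, against 7.62%). Without M2 array c 1 was lower, and under median scaling 5 were higher and 0 lower. Ier3, a survival and NF-kB target gene, rose by 1.69 ± 0.168 (adjusted p = 8.08e-05), and Nfkbie, an NF-kB inhibitor, by 0.91 ± 0.170 (adjusted p = 0.00423). Tnfaip2, a further NF-kB target, fell by 1.09 (SE 0.137, adjusted p = 0.000397). Of 18 NF-kB genes 4 were higher (22.2%, against 8.44% of all genes) and 1 lower (5.56%, against 7.62%). Interferon response genes had 0 of 13 called higher and 2 lower (15.4%, against 7.62% of all genes). The lower count was 1 without M0 array b or any M2 array, and 2 were higher without M0 array a. Ifitm2 was lower at -0.81 ± 0.105 (adjusted p = 0.000452).

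Clec10a, a galactose-binding lectin, read 8.22, 8.26 and 8.20 in M0 and 10.42, 10.33 and 10.41 in M2 (2.16 ± 0.0996, adjusted p = 2.09e-07), a 4.46-fold increase with little spread within either group. Cdh1, the adhesion protein E-cadherin, rose from 10.19, 10.46 and 10.16 to 11.46, 11.58 and 11.57 (1.26 ± 0.114, adjusted p = 5.25e-05). The summed level of 8 airway epithelium markers was 1442 to 1804 intensity units in M0 and 3096 to 3342 in M2, and Cdh1 is 1 of them. Of the 7 others, Krt5, Krt8, Krt18 and Scgb3a1 were undetected on all 6 arrays, Scgb1a1 was detected on 2 M0 arrays and on no M2 array, and Foxj1 and Bpifa1 on 1 M0 array each. Dcstamp, a membrane protein needed for macrophage fusion, rose by 1.70 ± 0.251 (adjusted p = 0.0011) and its relative Ocstamp by 1.42 ± 0.213 (adjusted p = 0.00122, at least 1.65-fold). Of 16 fusion genes measured, 4 were called higher (25%, against 8.44% of all genes) and 2 lower (12.5%, against 7.62%). The lower count was 0 without any of the 6 arrays in turn.

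Slc30a4, a zinc exporter, rose by 2.48 ± 0.175 (adjusted p = 8.33e-06), Kcnn4, a calcium-activated potassium channel, by 2.07 ± 0.201 (adjusted p = 7.02e-05), and Aqp9, a channel for glycerol and water, by 2.22 ± 0.170 (adjusted p = 1.59e-05, at least 2.76-fold). Fcrls, a scavenger receptor related to Fc receptors, was detected on M2 arrays only (2.34 ± 0.218, adjusted p = 5.78e-05, at least 2.39-fold), as were the adhesion gene Flrt2 (2.21 ± 0.187, adjusted p = 3.26e-05, at least 2.70-fold) and AA467197 (2.37 ± 0.107, adjusted p = 2.09e-07, at least 2.84-fold). Krt79, a keratin, rose from 5.52, 6.30 and 6.50 to 8.62, 8.31 and 8.37 (2.32 ± 0.284, adjusted p = 0.000322).

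The iron genes Tfrc and Slc40a1 moved in opposite directions. Tfrc, the transferrin receptor that takes up iron, rose from 7.40, 7.40 and 7.62 to 9.74, 9.69 and 9.61 (2.20 ± 0.114, adjusted p = 5.57e-07), a 4.61-fold increase. Slc40a1, the iron exporter ferroportin, read 8.52, 8.43 and 8.32 in M0 and 5.34, 5.31 and 5.29 in M2, where it was detected on no array (-3.11 ± 0.146, adjusted p = 2.2e-07, at least 5.22-fold lower). Slc11a1, the phagosomal metal transporter Nramp1, fell by 1.09 (SE 0.153, adjusted p = 0.000811), and Flvcr2, a transporter of the haem exporter family, from 9.49, 9.54 and 9.47 to 7.89, 7.38 and 7.58 (-1.88 ± 0.236, adjusted p = 0.000388). Of 21 iron and haem genes measured, 1 was called higher (4.76%, against 8.44% of all genes). Called lower were 5 (23.8%, against 7.62%), and under median scaling 3.

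The unfolded protein response of the endoplasmic reticulum (ER) is the programme by which cells add chaperones and oxidoreductases when secretory protein load grows. Of 37 of its genes measured, 20 were called higher (54.1%) and 1 lower, with a median difference of 0.54, and under median scaling 16 were higher. Pdia4, a disulfide isomerase, went from 7.08, 7.14 and 7.28 to 8.64, 9.06 and 8.87 (1.69 ± 0.142, adjusted p = 3.24e-05). Creld2 rose by 1.55 ± 0.155 (adjusted p = 8.08e-05), the ER-resident factor Manf by 1.33 ± 0.115 (adjusted p = 3.66e-05) and the oxidoreductase Txndc5 by 1.14 ± 0.118 (adjusted p = 0.000108). Hspa5, the master chaperone BiP, was already bright and went from 10.64, 10.64 and 10.55 to 11.29, 11.26 and 11.35 (0.69 ± 0.0869, adjusted p = 0.000388). The sensors and effectors were less uniform. The sensor gene Ern1 was the 1 gene of the list called lower (-0.45 ± 0.117, adjusted p = 0.0243). It was detected on no M2 array, which gives at least 1.02-fold lower. The sensor gene Eif2ak3 differed by -0.06 ± 0.179 and was not called. Both are named after their values were seen, and under median scaling 0 genes of the list were lower. Xbp1 at 0.17 ± 0.0954 (adjusted p = 0.265) and the death factor gene Ddit3 at -0.93 ± 0.306 (adjusted p = 0.0628) were not called. Ddit3 was called lower in 7 of 18 alternatives, with differences of -1.13 to -0.67 over all of them. Atf4 was called higher at 0.88 ± 0.222 (adjusted p = 0.0206), a call lost without M0 array a or b or M2 array a or c, with differences of 0.68 to 0.87 there.

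The ER stress response element, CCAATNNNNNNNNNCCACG or its reverse complement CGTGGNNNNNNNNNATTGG, is the known target of ATF6 together with NF-Y, and it was searched for in the same promoter windows. It occurred in 39 of 32851 promoters, or 0.119%. Of the 37 folding genes 33 had a promoter in the table and 9 held the element. Of these 9, 7 were called higher, and Ero1b and Syvn1 were not called. Of the folding genes with a promoter but without the element 11 were called higher, 1 lower and 12 not. Over all tested genes with a promoter the element was found in 11 of 5420, or 0.203%. It was found in 7 of 459 called higher and in 0 of 413 called lower, the latter near that share. The 7 were all folding genes, and Hsp90b1 (0.62), Pdia6 (1.07), Calr (0.54), Canx (0.45) and Dnajc3 (0.38) are named here because of this match, after their values (log2 differences) were seen. Calls of these 5 genes were not recomputed under the alternatives. The element is shown in capitals with its surrounding bases, 5′ to 3′ in the direction of the gene, and Hsp90b1 holds it at 2 places. The regions on GRCm38.p6 are chr15:88819500-88819558 (Creld2, plus strand), chr2:34772005-34772063 (Hspa5, plus), chr10:86705513-86705676 (Hsp90b1, minus), chr12:17266471-17266529 (Pdia6, plus), chr8:84847055-84847113 (Calr, minus), chr11:50325780-50325838 (Canx, minus) and chr14:118937807-118937865 (Dnajc3, plus).
Creld2: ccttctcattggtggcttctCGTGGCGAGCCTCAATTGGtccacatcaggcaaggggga
Hspa5: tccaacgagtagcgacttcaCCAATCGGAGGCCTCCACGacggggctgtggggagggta
Hsp90b1: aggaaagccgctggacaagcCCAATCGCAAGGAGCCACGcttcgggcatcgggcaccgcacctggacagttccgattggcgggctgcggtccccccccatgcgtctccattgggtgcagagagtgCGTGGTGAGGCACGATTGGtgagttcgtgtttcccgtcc
Pdia6: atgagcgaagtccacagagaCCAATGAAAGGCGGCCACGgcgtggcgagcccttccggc
Calr: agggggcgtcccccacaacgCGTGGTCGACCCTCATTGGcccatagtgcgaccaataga
Canx: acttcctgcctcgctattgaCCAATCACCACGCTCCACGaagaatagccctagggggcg
Dnajc3: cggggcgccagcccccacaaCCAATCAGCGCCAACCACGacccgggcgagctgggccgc

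Of 29 genes of translocation, signal cleavage and N-glycosylation, 16 were called higher (55.2%) and 0 lower, with 10 without M2 array b and 7 under median scaling. Ostc, a subunit of the oligosaccharyltransferase, rose from 6.68, 6.55 and 6.83 to 8.24, 8.18 and 8.03 (1.47 ± 0.138, adjusted p = 6.3e-05). Ssr2, of the translocon-associated complex, rose by 1.26 ± 0.133 (adjusted p = 0.000124), and Sec61a1, the pore subunit, by 0.78 ± 0.125 (adjusted p = 0.0018). Of 33 coat and cargo genes of ER to Golgi traffic, 7 were higher and 0 lower, and 2 were higher under median scaling. The cargo receptor Lman1 rose by 0.75 ± 0.139 (adjusted p = 0.00423) and the coat subunit Cope by 0.74 ± 0.105 (adjusted p = 0.000884).

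**Figure D3:**
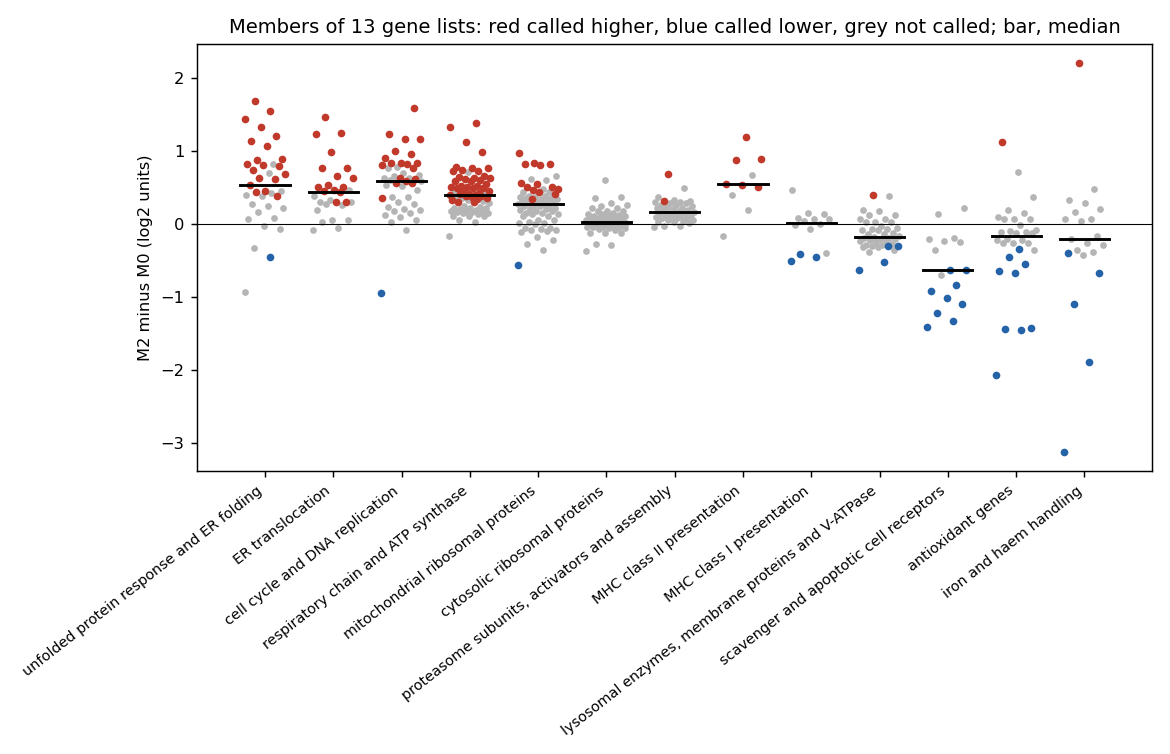
Differences of all measured members of 13 gene lists (vertical, M2 minus M0, log2 units). Each point is a gene, red where called higher, blue where called lower and grey where not called, and the bar is the list's median, which was 0.54 for ER folding, 0.40 for the respiratory chain, 0.04 for cytosolic ribosomal proteins and -0.63 for scavenger receptors.

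Of 70 respiratory chain and ATP synthase genes measured, 41 were called higher (58.6%) and 0 lower, with a median of 0.40. The count was 24 without M2 array b and 12 under median scaling, where the median was 0.45. Atp5g1, a subunit of the ATP synthase ring, went from 7.98, 7.68 and 7.96 to 8.86, 8.83 and 8.89 (0.99 ± 0.115, adjusted p = 0.000233). Uqcr10 of complex III rose by 0.79 ± 0.101 (adjusted p = 0.00042) and Ndufc1 of complex I by 0.76 ± 0.116 (adjusted p = 0.00125). Chchd10, a protein of the mitochondrial intermembrane space, rose more, from 7.61, 8.10 and 7.98 to 9.89, 9.92 and 10.08 (2.06 ± 0.153, adjusted p = 1.23e-05). Of 69 mitochondrial ribosomal proteins, 14 were called higher and 1 lower. That higher count fell to 9 without M0 array b, to 7, 4 and 8 without M2 array a, b and c, and to 5 under median scaling. Mrps28 at 0.82 ± 0.126 (adjusted p = 0.0013) and Mrpl12 at 0.81 ± 0.119 (adjusted p = 0.00105) were among them.

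Enzymes of the citrate cycle and fatty acid oxidation had 9 of 36 called higher (25%) and 2 lower (5.56%). The higher count was 4 without M0 array b, 3 without M2 array b and 2 under median scaling. The mitochondrial enzymes Fh1 (fumarase, 0.74 ± 0.124, adjusted p = 0.00222) and Idh2 (0.73 ± 0.136, adjusted p = 0.00408) rose. In glycolysis 3 of 21 were called higher and 3 lower (14.3% each, against 8.44% and 7.62% of all genes), with a median of 0.03. The platelet-type phosphofructokinase Pfkp rose from 6.31, 6.79 and 6.68 to 8.51, 8.43 and 8.42 (1.86 ± 0.171, adjusted p = 5.62e-05), while the aldolase Aldoc fell by 0.90 (SE 0.137, adjusted p = 0.00125). The higher count of glycolysis was 1 without M0 array c or M2 array a, and the lower count was 1 under median scaling.

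Among biosynthetic pathways, 7 of 19 amino acid and ATF4 target genes were called higher and 0 lower, 6 of 18 nucleotide synthesis genes were higher and 1 lower, and 4 of 17 tRNA synthetases were higher and 0 lower. Under median scaling 2 of the synthetases were higher, as without M0 array b or M2 array b. Asns, which makes asparagine and is a target of ATF4, went from 7.35, 6.91 and 6.88 to 8.76, 8.58 and 7.98 (1.39 ± 0.197, adjusted p = 0.000837), and Gpt2, an alanine transaminase, rose by 1.36 ± 0.148 (adjusted p = 0.000152). Gatm, the first enzyme of creatine synthesis, was detected on M2 arrays only, at 7.63, 7.78 and 7.64 (2.35 ± 0.108, adjusted p = 2.09e-07, at least 3.19-fold). Ctps, which makes CTP, rose by 1.48 ± 0.224 (adjusted p = 0.00125), and Slc7a2, an arginine transporter, by 0.98 ± 0.110 (adjusted p = 0.000169). In polyamine and arginine metabolism 5 of 13 were higher and 0 lower, with 3 under median scaling. Among these, the spermidine synthase gene Srm at 1.00 ± 0.163 (adjusted p = 0.00193, at least 1.57-fold) lost its call when the 6 wild-type arrays were fitted alone.

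Of 38 nucleolar and ribosome assembly genes, 12 were called higher and 0 lower. The count was 7 without M0 array a, and 6 without M2 array c or under median scaling. Rrs1, a large-subunit assembly factor, rose by 1.25 ± 0.185 (adjusted p = 0.00112) and Gar1, a small nucleolar ribonucleoprotein, by 0.70 ± 0.118 (adjusted p = 0.00249). Of 60 genes with cytosolic ribosomal protein symbols 0 were called in either direction, with a median of 0.04. An unadjusted p under 0.05 was seen for 5 of the 60, or 8.33%, against 1867 of 6563, or 28.4%, of all genes. The range of this list over the alternatives was 0 to 5 called higher and 0 to 1 called lower.

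Cell cycle and DNA replication genes were called higher for 19 of 46 (41.3%) and lower for 1, with a median of 0.60. The higher count was 12 without M2 array b. Ccnd2, the D-type cyclin of cell cycle entry, rose from 7.56, 7.69 and 7.75 to 9.11, 8.91 and 8.68 (1.24 ± 0.160, adjusted p = 0.000452). Cks1b, a partner of cyclin-dependent kinases, went from 8.08, 7.93 and 8.08 to 9.17, 9.28 and 9.12 (1.16 ± 0.120, adjusted p = 0.000102). Rpa2, a single-strand DNA binding protein, rose by 1.00 ± 0.147 (adjusted p = 0.00107) and the flap nuclease Fen1 by 0.84 ± 0.131 (adjusted p = 0.0015). The ribonucleotide reductase subunit Rrm2 rose by 0.96 ± 0.181 (adjusted p = 0.00444).

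Of 10 MHC class II genes measured, 6 were called higher and 0 lower, with 3 under median scaling. H2-DMb1, a chain of the peptide-loading factor, rose by 1.20 ± 0.137 (adjusted p = 0.000197). H2-DMa rose by 0.88 ± 0.108 (adjusted p = 0.000334) and Cd74, the invariant chain, by 0.90 ± 0.145 (adjusted p = 0.0018). Of 14 class I genes 0 were called higher and 3 lower, and the lower count was 0 under median scaling and without M0 array c or M2 array b, and 1 without M0 array b or M2 array a or c. Of 42 genes with proteasome symbols, 2 were called higher and 0 lower, so 4.76% against 8.44% of all genes, and without M0 array c or M2 array a or b 1 was higher. Psmb10, an inducible catalytic subunit, rose from 10.16, 10.12 and 10.11 to 10.87, 10.73 and 10.87 (0.69 ± 0.0903, adjusted p = 0.000469). The other inducible subunits did not pass: Psmb8 read 7.84, 7.55 and 8.06 in M0 and 7.97, 7.79 and 7.76 in M2 (0.03 ± 0.140), and Psmb9 differed by 0.09 ± 0.116.

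**Figure D4:**
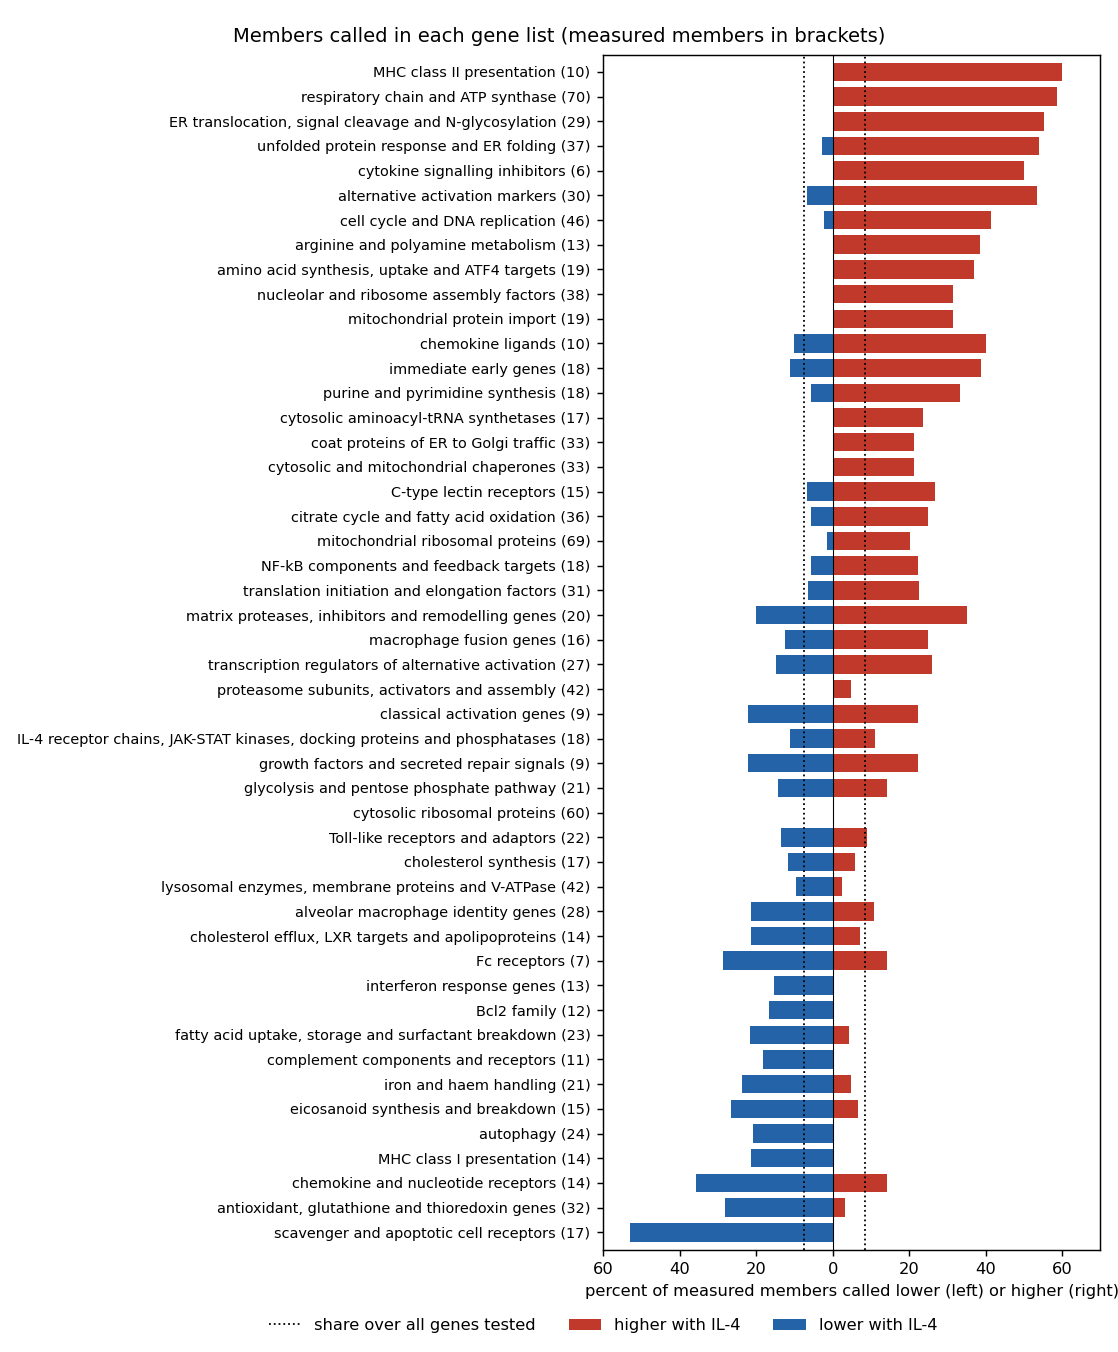
Percent of the measured members of each of 48 gene lists called higher (right, red) or lower (left, blue) with IL-4, with the number measured in brackets and dotted lines at the shares over all genes tested, 8.44% and 7.62%. MHC class II, the respiratory chain, ER translocation and ER folding stand at the top, and scavenger receptors at the bottom.

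Of 17 scavenger and apoptotic cell receptors measured, 0 were called higher and 9 lower (52.9%, against 7.62% of all genes), with a median of -0.63 and 7 lower under median scaling. Marco, a scavenger receptor typical of alveolar macrophages, fell from 10.88, 11.04 and 10.89 to 9.84, 9.93 and 9.78 (-1.09 ± 0.121, adjusted p = 0.000166). Itgb5, an integrin chain used in the uptake of dying cells, fell from 8.00, 8.18 and 8.48 to 6.71, 6.82 and 6.90 (-1.41 ± 0.124, adjusted p = 4.42e-05). Mertk, a receptor tyrosine kinase for apoptotic cells, fell by 0.84 (SE 0.0992, adjusted p = 0.000259), and the inhibitory receptor Cd300a by 1.22 (SE 0.138, adjusted p = 0.000187).

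Some receptors for antibodies and pathogens rose and others fell. Fcgr4, an activating Fc receptor, fell from 10.23, 10.19 and 10.15 to 8.73, 8.74 and 8.98 (-1.37 ± 0.112, adjusted p = 2.68e-05). Fcgr2b, the inhibitory Fc receptor, read 5.76, 6.38 and 6.28 in M0 and 6.96, 7.56 and 7.49 in M2 (adjusted p = 0.00301), so it moved the other way. Of 15 C-type lectin receptors 4 were called higher (26.7%) and 1 lower (6.67%). Clec4a3 rose by 0.78 ± 0.107 (adjusted p = 0.000701), and Clec4d, a receptor for mycobacterial glycolipid, fell from 10.74, 10.56 and 10.62 to 9.41, 9.05 and 8.97 (-1.50 ± 0.147, adjusted p = 7.38e-05). Tlr4, the lipopolysaccharide receptor, rose by 0.62 ± 0.122 (adjusted p = 0.00579). In its list of 22 Toll-like receptor genes 2 were higher (9.09%) and 3 lower (13.6%), against 8.44% and 7.62% of all genes. The higher count was 1 without any array other than M0 array c, and 0 were lower under median scaling. Cxcr1, a chemokine receptor, went from 7.56, 7.08 and 7.31 to 5.15, 5.19 and 5.38, undetected in M2 (-2.08 ± 0.265, adjusted p = 0.00042, at least 2.42-fold lower). The related Cxcr2 was higher at 1.15 ± 0.272 (adjusted p = 0.0149, at least 1.37-fold), a call lost without M2 array c, where the difference was 0.89. Neutrophils also carry both receptors, and their summed marker level was 608 to 632 intensity units in M0 and 526 to 610 in M2, with 9 of 12 undetected on all 6 arrays, among them S100a9, Mpo, Elane and Ltf. Of the other neutrophil markers S100a8, named after its values were seen and not recomputed under the alternatives, was detected on all 6 arrays and called lower (-1.03 ± 0.152, adjusted p = 0.00111), Camp was detected on 2 M2 arrays, and the third is Cxcr2. The neutrophil sum holds Cxcr2 itself and mostly undetected genes, so it cannot show whether neutrophils differed. The part of neutrophils in these results was not tested.

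Of 32 antioxidant and glutathione genes measured, 9 were called lower and 1 higher, with a median of -0.16. The lower count was 5 without M0 array c or M2 array c, and 4 under median scaling. Mgst2, a microsomal glutathione transferase, fell from 7.71, 7.53 and 7.72 to 5.49, 5.08 and 6.19 (-2.07 ± 0.314, adjusted p = 0.00125). Gstm1, a cytosolic glutathione transferase, fell from 9.07, 9.18 and 9.49 to 7.88, 7.85 and 7.71 (-1.42 ± 0.121, adjusted p = 3.26e-05), and Gpx3, a glutathione peroxidase, by 1.44 (SE 0.171, adjusted p = 0.000254). Gsta3 at -1.43 ± 0.206 (adjusted p = 0.000932, at least 1.71-fold lower) turned to 0.28 without the detection filter, where another probe of the gene was brightest. The exception was Glrx, glutaredoxin, which rose by 1.13 ± 0.134 (adjusted p = 0.000255).

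Of 23 lipid uptake and storage genes 1 was called higher (4.35%) and 5 lower (21.7%). The lower count was 2 under median scaling, and 3 without M0 array c or M2 array a or b. In cholesterol efflux 1 of 14 was higher (7.14%) and 3 lower (21.4%), with 1 lower under median scaling. In cholesterol synthesis 1 of 17 was higher (5.88%) and 2 lower (11.8%), with 0 of either under median scaling. Over all genes the shares were 8.44% and 7.62%. Apoc1, an apolipoprotein, read 8.68, 8.50 and 8.45 in M0 and 6.60, 5.48 and 5.79 in M2 (-2.59 ± 0.241, adjusted p = 5.78e-05), with more spread in M2 than in M0. Fabp7, a fatty acid binding protein, fell by 1.70 (SE 0.157, adjusted p = 5.78e-05), and Lsr, a lipoprotein receptor, by 1.62 (SE 0.276, adjusted p = 0.00247). The desaturase Scd1 rose by 1.09 ± 0.148 (adjusted p = 0.000629) and Ch25h, which makes 25-hydroxycholesterol, by 1.16 ± 0.185 (adjusted p = 0.0017). Fads1, a further desaturase, fell by 0.82 (SE 0.128, adjusted p = 0.00152). Of 28 alveolar macrophage identity genes, 3 were called higher (10.7%) and 6 lower (21.4%), with a median of 0.07 and 2 lower under median scaling.

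The remaining large decreases had varied functions. Il16, a T cell chemoattractant, fell by 1.89 (SE 0.211, adjusted p = 0.000169) and Gadd45g, a stress-inducible growth arrest gene, from 9.03, 9.76 and 8.93 to 7.29, 7.17 and 7.58 (-1.89 ± 0.268, adjusted p = 0.000841). The adaptor genes Dok3 (-1.75 ± 0.220, at least 1.77-fold lower) and Fyb (-1.73 ± 0.173) fell with adjusted p values of 0.000388 and 8.08e-05. The junction protein F11r (-1.75 ± 0.191, adjusted p = 0.000152) and the kinase-like gene Dclk3 (-1.91 ± 0.263, adjusted p = 0.000697) were detected on no M2 array, which gives at least 2.41-fold and 2.14-fold lower. The probe annotated to the small nuclear RNA Rnu6 read 9.70, 9.64 and 9.74 in M0 and 8.05, 7.54 and 7.47 in M2 (-2.01 ± 0.148, adjusted p = 1.23e-05). Slc46a3, a lysosomal transporter, at -1.58 ± 0.372 (adjusted p = 0.0144) lost its call without M0 array c (-1.40) or M2 array a (-1.30).

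Several genes are read by more than 1 probe, which gives a second measurement on the same arrays. Of 1519 genes with 2 or more kept probes 264 were called. In 247 of these all probes differed in the same direction, and in 125 all probes were called that way. A single gene, Shisa5, had probes called in opposite directions.

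The knockout arrays give the same comparison in other samples, within the same model. On these arrays Psmb8 read 5.38 to 5.69 in M0 and 5.63 to 5.81 in M2 and was detected on none, so that their labels matched the levels of the targeted gene. Knockout cells had 676 genes called higher and 741 lower with IL-4. Of the genes called higher in wild-type cells 433 were also called higher there, which is 78.2% of the wild-type calls and 64.1% of the knockout calls. Of those called lower 404 were also called lower, or 80.8% and 54.5%. Of the 108 wild-type increases of 2-fold or more 102 were called higher in knockout cells, and of the 92 such decreases 86 were called lower.

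Among the named genes, 4 had a difference between the 2 responses that was itself called. Retnla rose by 1.75 ± 0.150 in wild-type and by 3.25 ± 0.150 in knockout cells, a difference of 1.50 (adjusted p = 0.0315). Clec4d differed by -1.50 in wild-type and by -3.24 in knockout cells (difference -1.74, adjusted p = 0.0149), and the phospholipase Pla2g7 by -0.52 and by -1.75 (difference -1.23, adjusted p = 0.0149). The matrix gene Mamdc2 differed by -0.80 and by -2.19 (difference -1.39, adjusted p = 0.0149). Retnla was undetected on the M0 arrays of both genotypes and Mamdc2 on the M2 arrays of both, so their responses are bounds, at least 1.63-fold and 4.75-fold higher for Retnla and at least 1.06-fold and 2.96-fold lower for Mamdc2, and the size of their difference rests on readings below detection. The wild-type change of Pla2g7 lost its call under median scaling. Cish, at 3.33 against 4.29, missed the threshold (difference 0.96 ± 0.152, adjusted p = 0.0514), as did Il1b at 2.11 against 1.05 (-1.06 ± 0.190, adjusted p = 0.0995) and Ccl4 at 2.59 against 0.92 (-1.67 ± 0.363, adjusted p = 0.218). Cish was undetected on the M0 arrays of both genotypes. Il1b was undetected on those of wild-type cells and detected on 2 of knockout cells. The sizes of the Cish and Il1b differences thus also rest on readings below detection. The number of named genes with a called difference of responses was 0 without wild-type M2 array a, 1 without wild-type M0 array c and 2 without wild-type M2 array b.

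**Figure D5:**
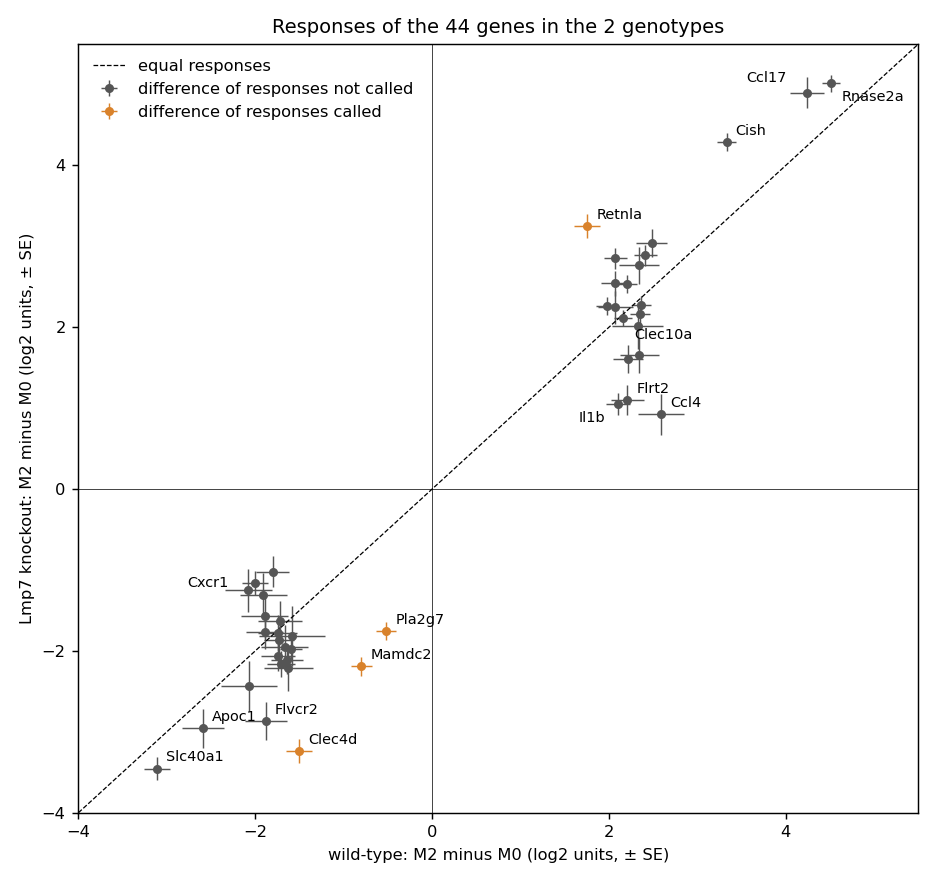
Responses to IL-4 in wild-type (horizontal) and Lmp7 knockout cells (vertical) of the 40 genes with the largest wild-type changes and the 4 genes whose responses differed by the test, in log2 units with SE bars. The dashed line marks equal responses, and Retnla, Clec4d, Mamdc2 and Pla2g7 (orange) lie off it.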

How the data were processed

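Probe intensities of 12 Illumina bead arrays were used. Per the file headers the deposited table holds a linear intensity and a detection p-value per probe and array, and its values were background-subtracted and not normalized between arrays by the authors. A second deposited table holds intensity values normalized by the authors on a linear scale by a method not given in the sources used here, and served as an alternative. Columns of the first table name the group but no replicate number, and the arrays of a group are therefore lettered in column order.

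Background was modelled by normexp from the detection p-values (limma 3.58.1, R 4.3.3, offset 16), and intensities were then quantile normalized and taken to log2. Probes with a detection p-value under 0.05 on at least 3 of 12 arrays were kept, and the brightest kept probe stood for a gene. Gene names came from the platform annotation, updated through RefSeq: 23978 of 25697 probes had 1 gene, 0 several and 1719 none. A model with 4 group means was fitted to all 12 arrays (8 residual degrees of freedom), with empirical Bayes moderation and Benjamini-Hochberg adjustment over 6563 genes. The procedure was tested on simulated data. The number of arrays limits the precision.

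Genes are named by rule: the 20 largest increases and 20 largest decreases among called genes whose groups do not overlap, up to 4 called members of smallest adjusted p in each of 48 lists (all members of lists with at most 8 measured), a fixed set of M2, signalling and stress genes, and genes whose probes were called in opposite directions. Members and lists were chosen with earlier results of these data known. Promoter sequences are those of RefSeq (GRCm38.p6), where 5420 of the 6563 genes matched. Alternatives covered background offset, normalization, the detection filter, probe summary, the moderation, array weights, the authors' values, a replicate block and leaving out each array. Of the fixed genes Ccl22 and Tnf were not tested.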

Additional observations from a re-analysis of the deposited data

Results flagged for a closer look

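The response to IL-4 differed between knockout and wild-type cells in 4 named genes by the test of the difference itself (limma, Benjamini-Hochberg over all genes, knockout minus wild-type response on the log2 scale, 3 arrays a group). The difference was -1.74 for Clec4d, -1.39 for Mamdc2 and -1.23 for Pla2g7, each with an adjusted p of 0.0149, and 1.50 for Retnla with an adjusted p of 0.0315. Clec4d and Pla2g7 were detected on all arrays of wild-type cells. Retnla was undetected on all M0 arrays and Mamdc2 on all M2 arrays of both genotypes, so the sizes of those 2 differences rest on readings below detection.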

How the results depend on the processing

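Median scaling of the arrays reduced the calls most, from 1054 to 469 (285 higher, 184 lower), and it took the call from 61 of the 195 named genes called. The median difference over all genes was then 0.06 on the log2 scale. Leaving out each array in turn gave 704 to 882 calls, with 365 to 461 higher and 339 to 421 lower. The other alternatives gave 828 to 1349 genes called, and 1363 probes were called when each of the 9200 kept probes was tested by itself. The number of named genes whose responses differed between wild-type and knockout cells, 4 as reported, was 7 with an offset of 50, 1 under median scaling, 7 with the mean of all kept probes, 11 with a trended and robust prior, 7 with array weights, and 0 to 5 when an array was left out. In 2 named genes the direction turned: Gsta3 to 0.284 without the detection filter (adjusted p = 0.6398) and Shisa5 to 0.0849 with the mean of its probes (adjusted p = 0.6696). Both follow from the use of other probes of the gene. Deviations of M0 and M2 samples with the same replicate number were weakly correlated (r = 0.151, -0.00998 and 0.0698 for numbers 1 to 3). Different numbers gave r of -0.156 to 0.109. The numbers were not taken as pairs, although the replicate block on the authors' values gave 1291 calls (663 higher, 628 lower) against 1115 without it. In each of the 4 groups array a had the lowest share of probes detected. This share was 25.5% to 29.2%, against 30.9% to 34.2% for arrays b and c. An effect shared by arrays of the same letter was not tested. Low signal limits the dim genes, where folds are bounds.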
